A study of Mus musculus with 9 samples.

Results

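A set of 10 genes for enzymes that transfer sugars in the endoplasmic reticulum and Golgi was examined, namely Galnt6, Galnt1, C1galt1, Gcnt1, St3gal1, Gxylt2, Eogt, Mgat5, Fut8 and Pgap4. They were chosen by name from earlier results of the same arrays, with their differences between tumour groups in view. They are 10 of the 13112 named genes measured. They were read from 14 of the array's 41174 probes, and all 14 were among the 26871 probes kept, for which the scanner software marked the tumour signal as well above background on 3 or more of the 9 arrays. The probe nearest to that limit was the one of Mgat5, which was well above background on 6 arrays, and no probe of the 10 genes fell outside it. The group differences of these genes are therefore given as a description, with no test. The label under which the genes were collected says that they differ, and for 4 of them, C1galt1, Mgat5, Fut8 and Galnt1, the pools of the 3 groups overlapped in every comparison at the brightest probe.

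The samples were experimental mouse melanomas grown from 3 variants of the B16-F10 line, which differ in histidine decarboxylase, the enzyme that makes histamine. HDC-A tumours came from the variant with diminished histamine production, HDC-M tumours from the unmodified variant and HDC-S tumours from the variant with enhanced production. Each group had 6 tumours, pooled in pairs into 3 RNA samples, and each pool was labelled with Cy5 and hybridised beside a Cy3-labelled reference, RNA of HDC-M cells in culture that was the same on all 9 arrays. The mouse strain, the age of the hosts and the length of growth are not given in the sources used here. Each group came from 1 line variant, so line and histamine production cannot be told apart, and pools of a group were treated as its replicates. Values are given as the log2 of tumour signal divided by reference signal. A difference of 1 between groups is therefore a 2-fold difference in RNA level. Whole tumours were measured, so fewer cells of a type and less RNA per cell cannot be told apart.

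The tumour signal was well above background at 57.98% to 69.7% of the probe spots, and Pearson's r between arrays over all kept probes was 0.896 to 0.949 for pools of one group and 0.859 to 0.920 for pools of different groups. The modified gene itself, Hdc, did not separate the groups at its probe, which read 0.06 to 0.60 in HDC-M, 0.15 to 0.42 in HDC-A and 0.33 to 0.61 in HDC-S pools. Of the 10 melanocyte markers listed, 8 were measured, each of them well above background on all 9 arrays, and Mlana and Sox10 gave no usable named probe. The mean log2 ratio of the 8 melanocyte markers was 0.71 to 1.01 in HDC-M pools, 0.57 to 0.64 in HDC-A pools and 0.37 to 0.56 in HDC-S pools, so that HDC-M stood above both variants. In limma's fit Oca2 was lower in HDC-S than in HDC-M tumours, and Tyr and Oca2 were lower in HDC-S than in HDC-A tumours. The 8 markers did not all move alike. In HDC-S minus HDC-M 1 was above 0 and 7 below, and in HDC-A minus HDC-M 3 were above and 5 below. In HDC-S minus HDC-A 4 were above 0 and 4 below. Of the 8 keratinocyte markers, all measured, the mean was 1.98 to 3.26 in HDC-M pools, 1.35 to 2.55 in HDC-A pools and 0.10 to 1.41 in HDC-S pools. The 7 skeletal muscle markers averaged 1.46 to 3.11 in HDC-A pools, 0.89 to 1.55 in HDC-M pools and 0.56 to 2.17 in HDC-S pools. The ranges of the 3 groups overlapped for macrophage, neutrophil, T and NK cell, B cell, fibroblast, adipocyte and endothelial markers. The part of these markers in the results below was not tested.

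Mucin-type O-glycans begin when an enzyme of the Galnt family attaches N-acetylgalactosamine to serine or threonine of a protein in the Golgi. C1galt1 then adds galactose, which gives the core 1 structure, and from there Gcnt1 adds a branch that gives core 2, while St3gal1 caps core 1 with sialic acid and so competes with branching. A separate set of O-glycans sits on the epidermal growth factor-like repeats of Notch and a few other proteins: Eogt places a single N-acetylglucosamine there in the endoplasmic reticulum, and Gxylt2 adds xylose to an O-linked glucose. Mgat5 and Fut8 work on N-glycans, where Mgat5 adds a further branch and Fut8 a fucose on the innermost sugar. Pgap4 is a Golgi enzyme that adds an N-acetylgalactosamine side chain to the glycolipid anchor (GPI anchor) of surface proteins. Altered O-glycan branching and sialylation, and Mgat5 branching, are widely studied in tumour cells.

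The promoter sequences of the 4 genes that follow are shown because Galnt6 and Gcnt1 shared a pattern of higher values in both variants, and Gxylt2 and Pgap4 set HDC-A tumours apart. Of the 10 genes, 7 had entries in the RefSeq promoter table of build GRCm38.p6, and those of Eogt, St3gal1 and Galnt1 were not analysed here. Each line gives the 250 bases before the most upstream listed start, 5′ to 3′ on the gene's strand, with CG dinucleotides in capitals.
Galnt6: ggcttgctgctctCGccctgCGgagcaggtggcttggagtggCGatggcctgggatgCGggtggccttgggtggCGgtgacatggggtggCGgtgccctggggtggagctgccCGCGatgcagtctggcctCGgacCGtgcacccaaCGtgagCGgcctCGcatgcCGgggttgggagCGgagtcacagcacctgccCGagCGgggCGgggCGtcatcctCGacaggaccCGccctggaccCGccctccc
Gcnt1: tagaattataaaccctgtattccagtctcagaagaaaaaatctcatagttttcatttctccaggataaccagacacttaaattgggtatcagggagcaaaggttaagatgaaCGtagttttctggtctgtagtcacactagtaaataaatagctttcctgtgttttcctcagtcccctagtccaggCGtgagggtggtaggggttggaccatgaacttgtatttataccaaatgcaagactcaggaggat
Gxylt2: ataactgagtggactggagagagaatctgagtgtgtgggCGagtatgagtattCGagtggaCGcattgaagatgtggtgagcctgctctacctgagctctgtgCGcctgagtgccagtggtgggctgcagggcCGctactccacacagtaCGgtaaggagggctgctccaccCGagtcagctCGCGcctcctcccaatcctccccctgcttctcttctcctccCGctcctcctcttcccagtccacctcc
Pgap4: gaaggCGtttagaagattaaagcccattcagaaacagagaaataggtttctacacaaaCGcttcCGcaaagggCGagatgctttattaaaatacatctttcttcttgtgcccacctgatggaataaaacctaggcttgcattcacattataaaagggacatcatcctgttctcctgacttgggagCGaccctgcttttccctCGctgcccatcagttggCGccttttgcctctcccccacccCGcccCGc
The window of Galnt6 lies at chr15:100729377-100729626 on the minus strand, and that of Gcnt1 at chr19:17372845-17373094 on the minus strand. The window of Gxylt2 lies at chr6:100704484-100704733 on the plus strand, and that of Pgap4 at chr4:49597877-49598126 on the minus strand. All 4 are upstream of the annotated transcript. At these starts the windows of Galnt6 and Gcnt1 were unlike each other in composition, which depended on the start taken. The Galnt6 window was 72.8% G and C with 22 CG dinucleotides, and the Gcnt1 window was 40.4% G and C with 2. Gxylt2 had 10 CG dinucleotides (59.6% G and C) and Pgap4 had 9 (48.4%), beside a median of 6 over all 32851 promoter windows. At other listed starts Galnt6 had 10 CG dinucleotides (59.6% G and C), Gcnt1 10 (55.6%) and 2 (51.6%), and Pgap4 27 (73.2%). Searched on both strands, none of the 4 windows held the motif CACGTG, present in 6.02% of all windows. This motif is an E-box, read by Mitf, the melanocyte transcription factor, and other basic helix-loop-helix factors. The related E-box CATGTG, present in 12.3% of all windows, was absent from the 4 as well. The motif TNGCGTG, part of the site of the aryl hydrocarbon receptor, was present in 4.1% of all windows and in none of the 4. At such shares 4 windows may well hold none of these motifs, so nothing is read from their absence. A window of Fut8, not printed here, held CATGTG on the minus strand, 63 bases before the start.

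**Figure D1:**
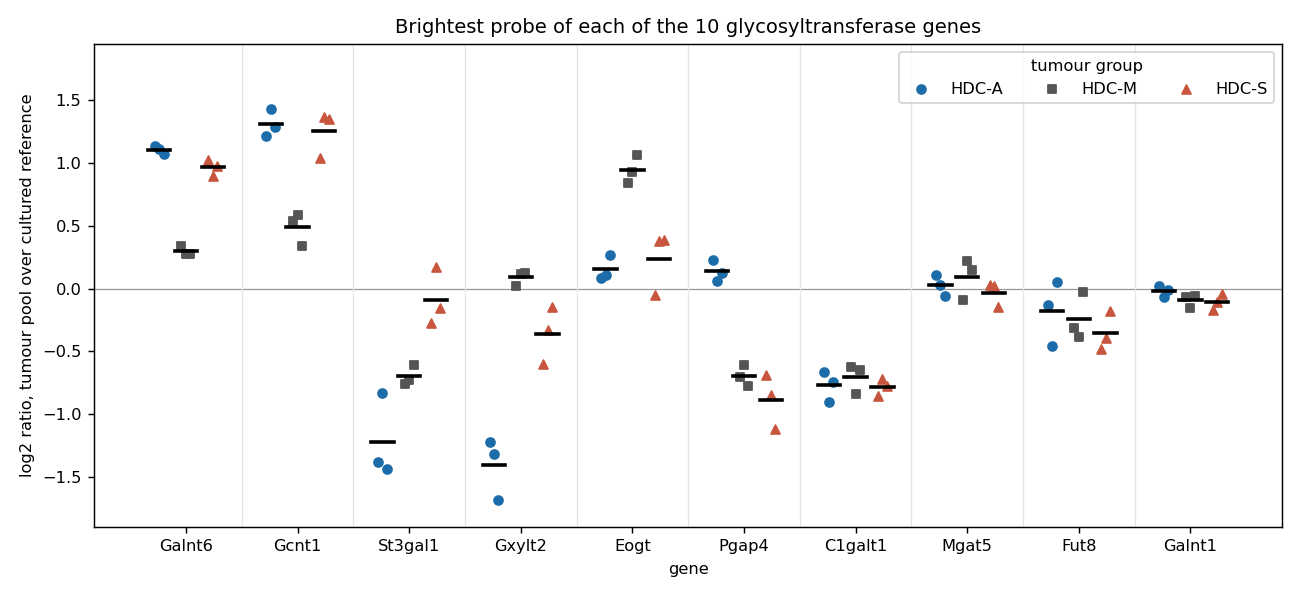
Log2 ratio of tumour pool over cultured reference (vertical axis) for the brightest probe of each gene (horizontal axis). Each point is 1 array, bars are group means, n = 3 per group. HDC-M pools lie below both variants for Galnt6 and Gcnt1 and above both for Eogt, HDC-A pools lie lowest for St3gal1 and Gxylt2 and highest for Pgap4, and the groups overlap for C1galt1, Mgat5, Fut8 and Galnt1.

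Taking the brightest probe of each gene, the 3 pools of one group lay entirely to one side of the other group's for 5 of 10 genes between HDC-S and HDC-M (3 higher, 2 lower in HDC-S), where 22.3% of all probes did (11.9% higher, 10.4% lower). Between HDC-A and HDC-M this held for 6 genes (3 higher and 3 lower in HDC-A), beside 20.9% of all probes (10.2% higher, 10.7% lower), and between HDC-S and HDC-A for 4 genes (2 higher and 2 lower in HDC-S), beside 24.4% of all probes (13.3% higher, 11.1% lower). The genes were chosen on these comparisons, so nothing is read from the counts. HDC-S minus HDC-M and HDC-A minus HDC-M share the HDC-M pools, and values of both are set side by side only.

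Galnt6, one of the enzymes that start mucin-type O-glycans, was higher in both variants than in HDC-M tumours. Its brighter probe (A_52_P111715) read 0.34, 0.28 and 0.27 in the HDC-M pools. It read 1.14, 1.11 and 1.07 in the HDC-A pools and 1.03, 0.89 and 0.98 in the HDC-S pools. No pool of one group overlapped another group, and HDC-M was the low group. The means were 0.30 ± 0.04 in HDC-M, 1.11 ± 0.03 in HDC-A and 0.97 ± 0.07 in HDC-S pools (SD, n = 3), which put HDC-A above HDC-M by 0.81 (1.75-fold), HDC-S above HDC-M by 0.67 (1.59-fold) and HDC-S beside HDC-A at a log2 difference of -0.14. The smaller difference between the variants was wider than the SD of either at this probe, but had the opposite sign at the other probe.

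The other probe of Galnt6 (A_52_P377160) ordered the pools less clearly and reversed the order of the variants, with HDC-S minus HDC-A at 0.12. It read 0.28, 0.26 and 0.08 in HDC-M, 0.37, 0.44 and 0.32 in HDC-A and 0.58, 0.52 and 0.39 in HDC-S pools. Both variants again lay above HDC-M without overlap, by 0.17 in HDC-A and 0.29 in HDC-S, and the variants overlapped each other. Without background correction these differences were 0.08 and 0.15. This probe was dim, with a tumour signal of 1.14 to 1.47 times that of the median negative control spot and a reference signal of 0.94 to 1.01 times it, against 3.00 to 6.28 and 1.40 to 1.55 times for the brighter probe. By the positions in the scanner files, whose genome build the files do not name, the brighter probe lies 767 bases downstream of the dim one.

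Galnt1, another enzyme of the same starting step, did not follow Galnt6. Its probe (A_51_P209518) read -0.07, -0.16 and -0.06 in HDC-M, 0.02, -0.07 and -0.01 in HDC-A and -0.17, -0.11 and -0.04 in HDC-S pools. The 3 groups overlapped and all values lay within 0.2 of the reference. The probe was rather dim, with a tumour signal of 1.7 to 2.0 times the negative-control median and a reference signal of 1.2 to 1.3 times it. C1galt1, the core 1 enzyme, was lower in every tumour pool than in culture, with overlapping groups. Its probe (A_51_P165475) read -0.63, -0.84 and -0.65 in HDC-M, -0.67, -0.91 and -0.74 in HDC-A and -0.85, -0.72 and -0.78 in HDC-S pools. Its group means differed by -0.08, -0.07 and -0.01 in HDC-S minus HDC-M, HDC-A minus HDC-M and HDC-S minus HDC-A. These lay within the SD of 0.12 in HDC-M and HDC-A tumours, and the SD in HDC-S tumours was 0.07. The tumour signal of C1galt1 was 1.7 to 2.3 times the negative-control median.

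Gcnt1, the core 2 branching enzyme, showed the pattern of Galnt6 at its bright probe. This probe (A_52_P21550) read 0.54, 0.58 and 0.34 in HDC-M pools, 1.22, 1.43 and 1.29 in HDC-A pools and 1.04, 1.37 and 1.35 in HDC-S pools. HDC-M was lower than both variants in every pool, and the variants overlapped. The means were 0.49 ± 0.13, 1.31 ± 0.11 and 1.25 ± 0.19 (SD, n = 3), so that HDC-A lay 0.83 (1.77-fold) and HDC-S 0.77 (1.70-fold) above HDC-M.

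The other 2 probes of Gcnt1 did not separate the groups. A_51_P119670 differed from HDC-M by 0.07 in HDC-A and 0.04 in HDC-S, and A_52_P227137 by 0.15 and 0.18, with overlapping pools in each case. They share 40 of their 60 bases and lie 2599 and 2619 bases upstream of the bright probe. Their tumour signals were 1.17 to 1.37 and 1.02 to 1.17 times the negative-control median, and A_52_P227137 passed the scanner software's background test on 7 arrays. The bright probe carried 3.75 to 8.72 times the negative-control median. With the scanner software's own ratio, A_52_P227137 differed from HDC-M by 1.09 in HDC-S and 0.57 in HDC-A, so that its value depends on the processing. The difference at Gcnt1 therefore rests on 1 bright probe.

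**Figure D2:**
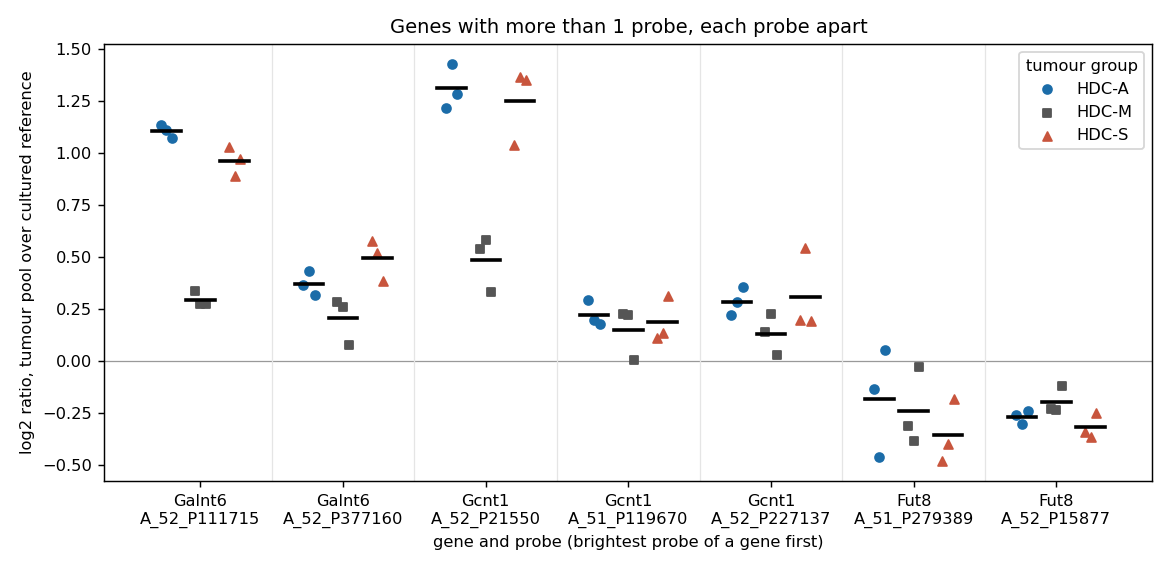
Log2 ratio of tumour pool over cultured reference (vertical axis) for each probe of Galnt6, Gcnt1 and Fut8 (horizontal axis), the brightest first. Points are arrays, bars are group means, n = 3 per group. Both Galnt6 probes put HDC-M below the variants, with 0.81 and 0.17 between HDC-A and HDC-M. Only the bright Gcnt1 probe separates HDC-M, and both Fut8 probes stay between -0.50 and 0.10.

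St3gal1, which caps core 1 with sialic acid, ran from HDC-A through HDC-M to HDC-S. Its probe (A_51_P301804) read -0.76, -0.73 and -0.61 in HDC-M, -1.38, -0.84 and -1.44 in HDC-A and -0.28, 0.17 and -0.16 in HDC-S pools. No 2 groups overlapped, HDC-A being lowest and HDC-S highest, and HDC-A replicate 2 lay close to the HDC-M pools. The means were -1.22 ± 0.33, -0.70 ± 0.08 and -0.09 ± 0.23 from the lowest group to the highest (SD, n = 3). HDC-S exceeded HDC-A by 1.13 (2.19-fold) and HDC-M by 0.61 (1.53-fold), and the value of HDC-A minus HDC-M was -0.52. On the first scan day, with 2 pools per group, that value was -0.36, and on the second, with 1 pool per group, -0.84. Without HDC-A replicate 2 it was -0.71. With other processing it ran from -0.89 under median centring to -0.25 with array scaling, and HDC-S minus HDC-M was 0.23 under median centring.

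The Notch-type enzymes Gxylt2 and Eogt were highest in HDC-M tumours. Gxylt2 (A_52_P93393) read 0.02, 0.12 and 0.13 in HDC-M, -1.23, -1.32 and -1.68 in HDC-A and -0.60, -0.33 and -0.15 in HDC-S pools. The 3 groups lay apart, HDC-A far below. The means were 0.09 ± 0.06, -1.41 ± 0.24 and -0.36 ± 0.23 (SD, n = 3). HDC-A minus HDC-M was -1.50, a 2.82-fold lower ratio and the widest difference among the 10 genes. HDC-S minus HDC-M was -0.45 and HDC-S exceeded HDC-A by 1.05 (2.07-fold). On the first scan day (2 pools per group) and the second (1 pool per group), HDC-A minus HDC-M was -1.34 and -1.81 at Gxylt2. HDC-S minus HDC-A was 0.80 and 1.54. HDC-S minus HDC-M at Gxylt2 ran from -0.82 under median centring to -0.26 with Cy5 alone.

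Eogt (A_51_P216702) read 0.84, 0.93 and 1.06 in HDC-M, 0.08, 0.11 and 0.27 in HDC-A and -0.05, 0.38 and 0.39 in HDC-S pools. HDC-M lay above both variants in every pool and the variants overlapped. The means were 0.94 ± 0.11, 0.15 ± 0.10 and 0.24 ± 0.25 (SD, n = 3), with HDC-A minus HDC-M at -0.79 and HDC-S minus HDC-M at -0.71, folds of 1.73 and 1.63. Under median centring they were -1.19 and -1.11. Eogt was the brightest of the 14 probes over background, at 9.93 to 29.2 times the negative-control median in tumours. The melanocyte marker mean had the same high group, HDC-M at 0.71 to 1.01, though 3 of its 8 markers were higher in HDC-A and 1 in HDC-S than in HDC-M. The keratinocyte marker mean was also highest in HDC-M, at 1.98 to 3.26, though its range overlapped that of HDC-A. All 8 keratinocyte markers were lower in both variants than in HDC-M, none of them past the threshold.

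Of the N-glycan enzymes, Mgat5 (A_52_P502838) read -0.09, 0.22 and 0.15 in HDC-M, 0.10, 0.03 and -0.06 in HDC-A and 0.03, 0.02 and -0.15 in HDC-S pools. The groups overlapped, and the probe was well above background on 2 of 3 arrays in each group, at 1.06 to 1.19 times the negative-control median. The authors' value table, for the same spots, gave -2.11 for HDC-S minus HDC-M and -2.28 for HDC-A minus HDC-M, so the value of this probe depends on the processing. The brighter probe of Fut8 (A_51_P279389) read -0.31, -0.38 and -0.03 in HDC-M, -0.13, -0.46 and 0.06 in HDC-A and -0.48, -0.40 and -0.18 in HDC-S pools, with overlapping groups. Its tumour signal was 1.4 to 1.6 times the negative-control median. The other Fut8 probe (A_52_P15877), which lies 109862 bases upstream, read -0.23, -0.24 and -0.12 in HDC-M, -0.26, -0.30 and -0.24 in HDC-A and -0.34, -0.36 and -0.25 in HDC-S pools. There HDC-M lay just above both variants, by 0.07 to HDC-A and 0.12 to HDC-S, at a tumour signal of 1.11 to 1.15 times the negative-control median.

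Pgap4, the enzyme of the GPI side chain, stood out in HDC-A tumours. Its probe (A_52_P207335) read -0.71, -0.61 and -0.78 in HDC-M, 0.23, 0.06 and 0.12 in HDC-A and -0.69, -0.85 and -1.12 in HDC-S pools. HDC-A was above both other groups in every pool, and HDC-S and HDC-M overlapped. HDC-A averaged 0.14 ± 0.09, HDC-M -0.70 ± 0.08 and HDC-S -0.89 ± 0.22 (SD, n = 3). HDC-A exceeded HDC-M by 0.83 (1.78-fold), and HDC-S minus HDC-A was -1.02 (2.03-fold). The authors' value table gave 1.30 and -1.56. The skeletal muscle marker mean was also highest in HDC-A, at 1.46 to 3.11, though its range overlapped both other groups.

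With 3 arrays per group, the mean of the 3 group means over the cultured reference is estimated apart from the differences between groups. It shares the fit's estimate of spread with them, so it is not fully free of the choice of genes. This mean was tested with limma across all probes, 78.8% of which passed (47.3% higher and 31.6% lower in tumours). Averaged over the 3 groups, tumours held more Gcnt1, Galnt6 and Eogt RNA than cultured HDC-M cells and less C1galt1, St3gal1, Gxylt2, Pgap4, Fut8 and Galnt1. Of the 10 genes, 9 passed, 3 higher and 6 lower in tumours. Among the enzymes of the mucin pathway, Gcnt1 was higher by 1.02 (SE 0.04, limma adjusted p = 2.01e-08) and Galnt6 by 0.79 (SE 0.02, limma adjusted p = 2.1e-09). C1galt1 was lower, at -0.75 (SE 0.03, limma adjusted p = 2.91e-08), as was St3gal1 at -0.67 (SE 0.07, limma adjusted p = 8.89e-06). Galnt1 was lower by a small amount, -0.07 (SE 0.02, limma adjusted p = 0.018).

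Averaged over the groups, the Notch-type pair went opposite ways against culture. In HDC-M tumours alone both were above 0, Gxylt2 at 0.09 and Eogt at 0.94. Eogt was higher in tumours by 0.45 (SE 0.05, limma adjusted p = 1.77e-05) and Gxylt2 lower at -0.56 (SE 0.06, limma adjusted p = 8.67e-06). Pgap4 was lower at -0.48 (SE 0.04, limma adjusted p = 3.85e-06) and Fut8 at -0.26 (SE 0.06, limma adjusted p = 0.00249), with -0.26 also at its second probe. Mgat5 was at 0.03, with a 95% interval from -0.06 to 0.11 (limma adjusted p = 0.505). The dim probes of Gcnt1 and Galnt6 were higher in tumours as well, by 0.19, 0.24 and 0.36.

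**Figure D3:**
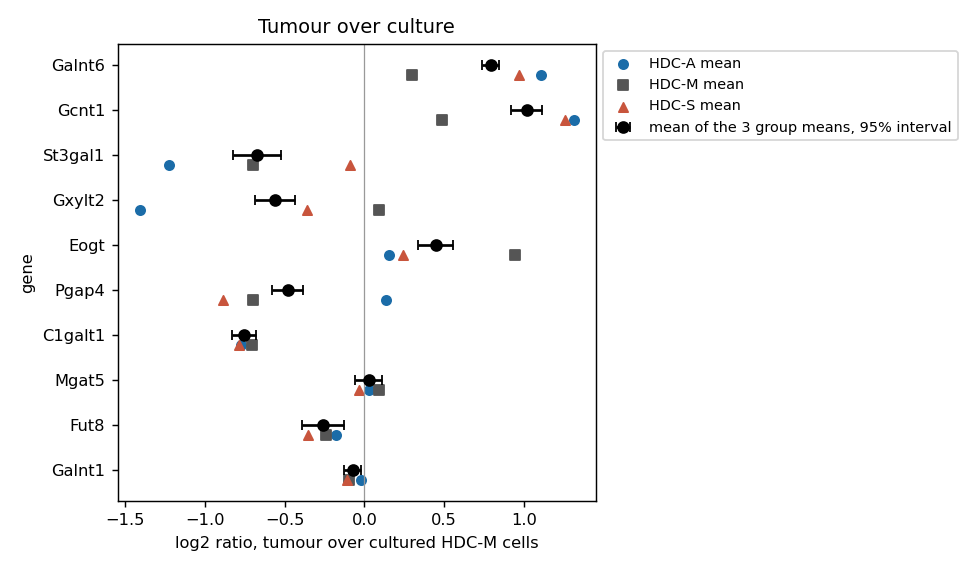
Log2 ratio of tumour over cultured HDC-M cells (horizontal axis) for the brightest probe of each gene (vertical axis). Black points are the mean of the 3 group means with its 95% interval from the limma fit, coloured points are the group means. The intervals of 9 genes exclude 0 and that of Mgat5, -0.06 to 0.11, includes it, and for Gxylt2 and Pgap4 the group means lie on both sides of 0.

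These averages cover groups that differ. Gxylt2 was at 0.09 in HDC-M tumours, Pgap4 at 0.14 in HDC-A and St3gal1 at -0.09 in HDC-S, near the culture level. The other groups of each of these genes were lower. The reference came from HDC-M cells, so in HDC-A and HDC-S tumours line and growth as a tumour cannot be told apart. The reference was 1 RNA sample, always in Cy3, so its own spread is left out and a dye effect of a probe is not cancelled. Markers of other cell types differed in the same contrast: all 7 fibroblast, 8 macrophage, 8 keratinocyte and 7 skeletal muscle markers were higher in tumours by the same test; their part in these 9 results was not tested. Where loess was replaced by centring each array on its median, which moved the median of all probes from 0.06 to 0.19, 5 of 10 genes passed, 4 higher and 1 lower in tumours in place of 3 and 6. St3gal1 (-0.16), Gxylt2 (-0.05), Pgap4 (-0.05) and Fut8 (-0.09) then missed the threshold, C1galt1 was at -0.40, Galnt6 was at 1.23 and Eogt at 0.96, Galnt1 turned to 0.18 and Mgat5 to -0.08. With the scanner software's ratio, the values of C1galt1 (-1.44), Pgap4 (-0.86), Fut8 (-0.83) and Galnt1 (-0.20) were farther from 0. Galnt1 also missed the threshold without HDC-S replicate 1 (-0.06) or without HDC-M replicate 2 (-0.06).

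The other genes of these pathways were read from 7 lists with 124 measured genes that are not among the 10. These lists were drawn up with earlier results known, and each gene was read from its brightest probe. Most did not pass between tumour groups. Between HDC-S and HDC-M, 2 of 124 passed limma's test (1.61%, beside 0.681% of all probes), between HDC-A and HDC-M 5 (4.03%, beside 1.44%) and between HDC-S and HDC-A 11 (8.87%, beside 5.26%). In the last comparison 3 were higher and 8 lower in HDC-S (2.84% and 2.42% of all probes), and the median log2 difference of the 124 genes was 0.0039, beside 0.0045 over all probes. These counts depended on single arrays: with any 1 array left out they were 0 to 2, 0 to 2 and 5 to 11, and only without HDC-M replicate 3 did the last stay at 11. With each array left out in turn, St3gal6, St3gal5, Cmas, Gfus and Dpm1 passed all 9 times between HDC-S and HDC-A and Man1a 7 times, and Man1a passed 6 times between HDC-A and HDC-M. The other calls below passed 0 to 2 times. With array scaling after loess, 1 gene was higher and 1 lower in HDC-S than in HDC-A, and with the scanner software's ratio 3 and 2.

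**Figure D4:**
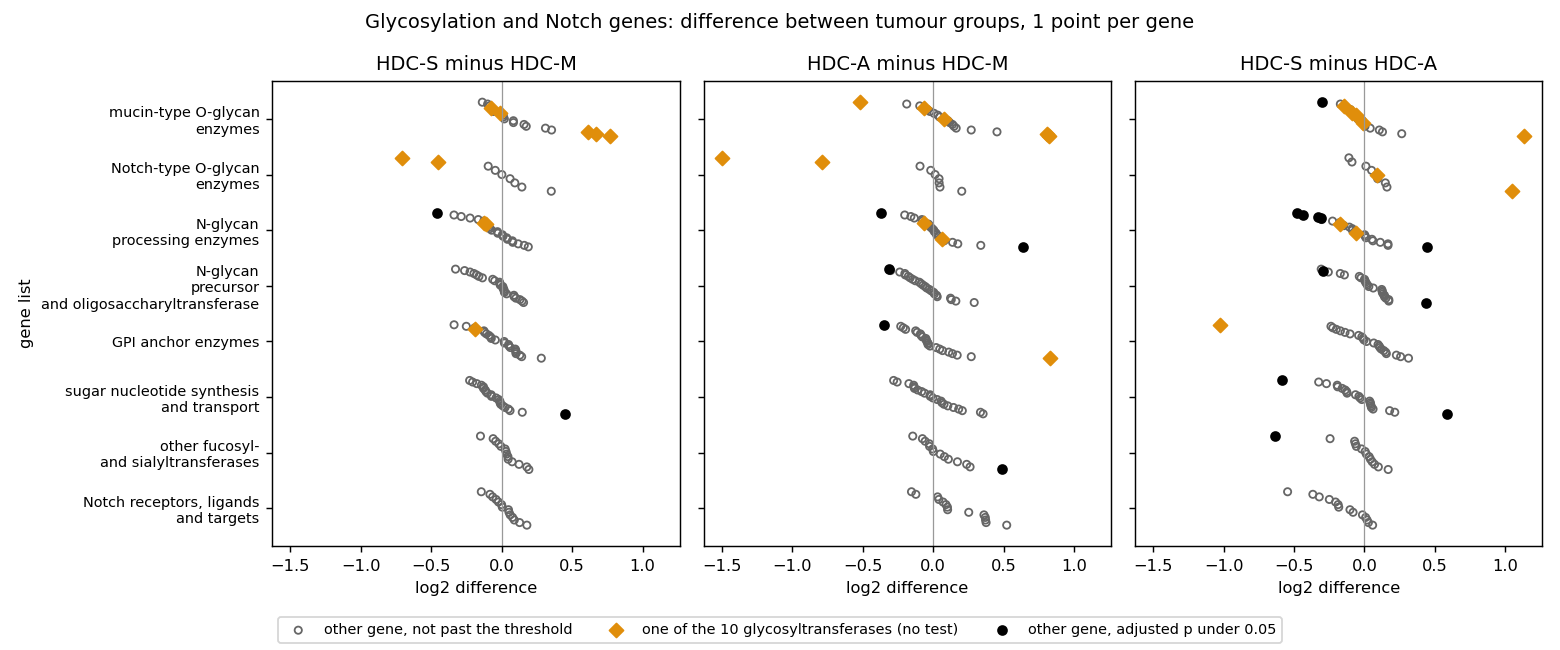
Log2 difference between 2 tumour groups (horizontal axis, 1 panel per comparison) for each measured gene of 8 lists (rows, genes of a list ordered by value). Filled black points passed limma's test, open points did not, and orange diamonds are the 10 glycosyltransferases, shown without a test. The passing genes lie between -0.64 and 0.64, and several diamonds lie farther out.

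Of the N-glycan processing genes, 5 of 21 passed between HDC-S and HDC-A tumours (23.8%, beside 5.26% of all probes). With the scanner software's ratio only St3gal6 of these 5 did. With 1 array left out, Man2a1 and Mgat4b passed 2 of 9 times and Mgat1 1 of 9 times. Man1a, a mannosidase that trims N-glycans in the Golgi, read 0.74 ± 0.09 in HDC-M tumours, 1.38 ± 0.09 in HDC-A and 0.91 ± 0.14 in HDC-S (SD, n = 3). It exceeded HDC-M in HDC-A tumours by 0.64 (limma adjusted p = 0.0145) and was lower in HDC-S than in HDC-A, at -0.48 (limma adjusted p = 0.015). Man2a1, the later Golgi mannosidase, was lower in HDC-S than in HDC-A at -0.31 (limma adjusted p = 0.0293). Mgat4b, a branching enzyme, was lower in HDC-S than in both HDC-A (-0.33, limma adjusted p = 0.036) and HDC-M (-0.46, limma adjusted p = 0.0374). Mgat1, which opens the way to complex N-glycans, was lower in HDC-S than in HDC-A at -0.43 (limma adjusted p = 0.043), but its second probe was at 0.07.

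St3gal6, which sialylates galactose at the ends of N-glycans and other chains, read -0.26 ± 0.09 in HDC-M tumours, -0.63 ± 0.10 in HDC-A and -0.18 ± 0.05 in HDC-S (SD, n = 3). It was higher in HDC-S than in HDC-A by 0.45 (limma adjusted p = 0.0115) and lower in HDC-A than in HDC-M at -0.37 (limma adjusted p = 0.0452). HDC-A was the lowest group, as for St3gal1, but HDC-S and HDC-M pools overlapped, at a difference of 0.08 (limma adjusted p = 0.694). St3gal5, which makes the ganglioside GM3, ran the other way, at -0.05 ± 0.01 in HDC-S, 0.11 ± 0.18 in HDC-M and 0.59 ± 0.12 in HDC-A. It was lower in HDC-S than in HDC-A at -0.64 (limma adjusted p = 0.00842) and higher in HDC-A than HDC-M by 0.49 (limma adjusted p = 0.0449). Cmas, which activates sialic acid for all sialyltransferases, was lower in HDC-S than in HDC-A at -0.58 (limma adjusted p = 0.0106), where the fit lacked HDC-A replicate 2, an outlier spot.

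Gfus, which makes GDP-fucose for Fut8 and other fucosyltransferases, was higher in HDC-S tumours than in HDC-A by 0.58 (limma adjusted p = 0.00765) and than in HDC-M by 0.45 (limma adjusted p = 0.049). Dpm1, part of the enzyme that makes the mannose donor dolichol-phosphate mannose, was higher in HDC-S than in HDC-A by 0.44 (limma adjusted p = 0.00527) and lower in HDC-A than in HDC-M at -0.31 (limma adjusted p = 0.0348). Its second probe gave 0.10 and -0.13 without passing, and the HDC-A minus HDC-M value was 0.00732 with array scaling. Ddost, a subunit of the oligosaccharyltransferase, was lower in HDC-S than in HDC-A at -0.29 (limma adjusted p = 0.0346).

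Of 14 other mucin-type genes 1 passed (7.14%, beside 5.26% of all probes in HDC-S minus HDC-A), Galnt2, which starts O-glycans like Galnt6. It was lower in HDC-S than in HDC-A at -0.30 (limma adjusted p = 0.0494), with 1 usable HDC-M array at that probe and -0.09 at its second probe. Of 22 GPI anchor genes 1 passed (4.55%, beside 1.44% of all probes in HDC-A minus HDC-M), Pigx, which works with the enzyme adding the first mannose. Pigx was lower in HDC-A than in HDC-M at -0.35 (limma adjusted p = 0.042), and its second probe at -0.38 (limma adjusted p = 0.039). Pgap4 was higher in the same comparison.

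None of 7 other Notch-type enzymes and none of 14 Notch receptors, ligands and targets passed limma's test in any of the 3 comparisons. Of all probes 0.681% passed in HDC-S minus HDC-M, 1.44% in HDC-A minus HDC-M and 5.26% in HDC-S minus HDC-A. Lists this small may hold no passing gene at such shares, so nothing is read from these counts. At an unadjusted p under 0.05 there were 1 enzyme in HDC-S minus HDC-M, 2 Notch genes in HDC-A minus HDC-M and 1 in HDC-S minus HDC-A. Among the Notch-type enzymes the smallest F-test p was that of Mfng, a Fringe enzyme that extends O-fucose on Notch. Mfng read 0.32 ± 0.11 in HDC-M tumours, 0.53 ± 0.03 in HDC-A and 0.67 ± 0.20 in HDC-S (SD, n = 3; limma adjusted p = 0.142 for any difference). Among the Notch genes it was that of the ligand Jag1, at 0.10 ± 0.07 in HDC-M, 0.47 ± 0.14 in HDC-A and 0.10 ± 0.14 in HDC-S (limma adjusted p = 0.0667 for any difference). All 14 Notch genes passed against culture, 12 of them higher in tumours, beside 78.8% of all probes passing and 47.3% higher. In the same contrast 7 of 7 fibroblast, 8 of 8 macrophage and 6 of 8 endothelial markers were higher, and their part was not tested.

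Eogt and Gxylt2 lie on the same chromosome, 6, with 9 measured genes between them, in the order Uba3, Arl6ip5, Frmd4b, Mitf, Foxp1, Eif4e3, Gpr27, Rybp and Shq1. None of the 9 passed limma's test, where 0.681% to 5.26% of all probes did by comparison. At an unadjusted p under 0.05 there was 1 in HDC-A minus HDC-M and 1 in HDC-S minus HDC-A. Their log2 differences ran from -0.15 to 0.12 in HDC-S minus HDC-M, from -0.22 to 0.14 in HDC-A minus HDC-M and from -0.22 to 0.24 in HDC-S minus HDC-A, where the smallest limma adjusted p was 0.0813. Mitf, the melanocyte transcription factor, was among them at 2.04 ± 0.06 in HDC-M tumours, 1.87 ± 0.08 in HDC-A and 1.91 ± 0.12 in HDC-S (SD, n = 3).

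**Figure D5:**
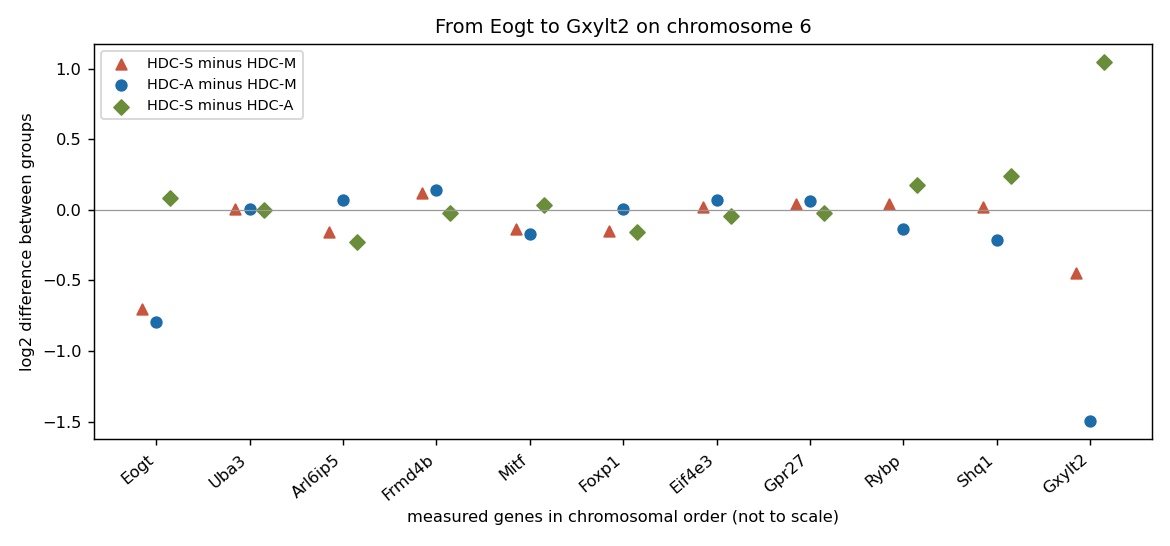
Log2 difference between tumour groups (vertical axis) for Eogt, Gxylt2 and the 9 measured genes between them on chromosome 6 (horizontal axis, chromosomal order, not to scale). Each symbol is 1 comparison. The 9 genes between lie within -0.22 and 0.24, while Eogt reaches -0.79 and Gxylt2 -1.50.

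Of the 20 nearest measured neighbours of the 10 genes, 1 passed between HDC-A and HDC-M (beside 1.44% of all probes), 4 between HDC-S and HDC-A (beside 5.26%), and 0 between HDC-S and HDC-M (beside 0.681%), where the smallest limma adjusted p was 0.0531. At an unadjusted p under 0.05 there were 6, 9 and 3 neighbours in these comparisons, in the same order. No share of all probes is given beside these unadjusted counts. Ndrg1, a stress and hypoxia response gene next to St3gal1 on chromosome 15, read 0.49 ± 0.04 in HDC-M tumours, 0.05 ± 0.58 in HDC-A and 1.32 ± 0.28 in HDC-S (SD, n = 3) and was higher in HDC-S than in HDC-A by 1.27 (limma adjusted p = 0.0221). St3gal1 had the same order of group means. Asns, asparagine synthetase, which lies beside C1galt1, was higher in HDC-S than in HDC-A by 0.85 (limma adjusted p = 0.0023) and lower in HDC-A than in HDC-M at -0.45 (limma adjusted p = 0.0297), while C1galt1 was at -0.01 and -0.07. Rnf20, a ubiquitin ligase beside Pgap4, was lower in HDC-S than in HDC-A at -0.55 (limma adjusted p = 0.0141), and Cela1, an elastase gene beside Galnt6, was higher by 0.31 (limma adjusted p = 0.0189).

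For Galnt6, Gxylt2 and Pgap4, the 3 whose groups lay farthest apart relative to their spread, the other genes most like them in pattern were found by Pearson's r over the 9 arrays among 17038 probes with a symbol. Arrays of a group share their line and all share the reference, so r describes the likeness and has no test. Nearest to Galnt6 were Tm2d2 (r = 0.961), Hdac9 (r = 0.957) and Gpr21 (r = 0.952), of which Hdac9 differed most, by 0.52 in HDC-S and 0.55 in HDC-A against HDC-M. Nearest to Gxylt2 were Dpagt1 (r = 0.984), Osgep (r = 0.982) and Rdx (r = 0.975). Dpagt1, the enzyme of the opening step of N-glycan precursor synthesis, differed far less than Gxylt2, at -0.24 in HDC-A minus HDC-M against -1.50. Nearest to Pgap4 were the respiratory chain genes Sdha (r = 0.990) and Ndufs6 (r = 0.982), and Tspan13 (r = 0.973), with HDC-S minus HDC-A at -0.34, -0.36 and -0.44 against -1.02 for Pgap4.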

How the data were processed

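RNA of 9 pools of B16-F10 melanomas, 3 per group, was measured on 2-colour Agilent mouse arrays, with Cy5 for the tumour pool and Cy3 for a common cultured reference, without dye swap. The deposited intensity values, a mean and a local background per spot and dye, were written by Agilent Feature Extraction 8.5.1.1, per the file headers. The authors' value table holds log10 ratios of Cy5 over Cy3, identical at every spot to the ratio column the scanner software wrote, with array medians from -0.00941 to 0. Other columns deposited by the authors mark control, outlier, dim and saturated spots.

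Intensities were corrected with normexp (offset 50), normalised by loess within arrays and fitted with limma 3.58.1 in R 4.3.3, all 9 arrays in one model, and spots of a probe were averaged. Control and outlier spots were left out. Probes well above background in Cy5 on at least 3 of 9 arrays were kept, and Benjamini-Hochberg adjustment ran over all of them, with a threshold of 0.05. Accessions named 22072 probes through a RefSeq gene table, other accessions 142, symbols 668 and synonyms 618. The number of arrays limits precision.

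The 10 genes, the gene lists and the tests were chosen with earlier results of these data known. The text names all 10 genes, list genes that passed or else had the smallest F-test p, the nearest measured neighbours, and the 3 most similar genes for 3 of the 10, ranked by the F statistic only to choose them. Nothing in the labels says that pools came from separate experiments, so p-values measure the spread between these pools. The fit was tested on simulated data. Alternatives covered background correction, normalisation, the filter on dim probes, scan day, the replicate number and leaving out arrays.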

Additional observations from a re-analysis of the deposited data

How the results depend on the processing

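The signs of the group differences of the 10 genes that lay apart between groups, and of the glycosylation genes that passed, were kept under every alternative run, except Dpm1 in HDC-A minus HDC-M with array scaling (0.00732). Against culture, Galnt1 (0.178) and Mgat5 (-0.0825) changed sign under median centring, where 5 of the 10 genes passed. Of 124 glycosylation genes, the numbers passing in HDC-S minus HDC-M, HDC-A minus HDC-M and HDC-S minus HDC-A were 4, 8 and 12 without background correction, against 2, 5 and 11 in the report. They were 0, 0 and 0 under median centring, likewise with only the first scan day's arrays, 0, 0 and 2 with array scaling, 0, 0 and 5 with the scanner software's ratio, 0, 0 and 4 in the authors' value table, 0, 1 and 2 with Cy5 alone, 0, 1 and 8 with scan day as a block and 0, 1 and 6 with only the 2 groups compared. Median centring moved the median of all probes to -0.12 in HDC-S minus HDC-M and -0.11 in HDC-A minus HDC-M. It also raised the share of higher calls against culture from 59.9% to 76.3%. With any 1 array left out the counts were 0 to 2, 0 to 2 and 5 to 11, and 8 to 9 of the 10 genes against culture. Of the recomputed values of the 18 calls behind these counts, 196 still passed, 217 kept their direction without passing and 1 changed sign. The causes were not tested, but a fit without an array or a group has fewer samples. Depth of signal limits Mgat5, the dim probes of Gcnt1 and Galnt6 and the second probe of Fut8, whose signals lie near the negative controls. It also limits the brighter probe of Fut8 and the probes of Galnt1 and C1galt1. Their tumour signals were 1.4 to 1.6, 1.7 to 2.0 and 1.7 to 2.3 times the negative-control median.

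The replicate numbers were checked as a pairing: same-numbered pools of different groups correlated with r from -0.189 to 0.548 in their deviations from the group means, 4 of 9 pairs were over 0.1, and 3 of 9 pools correlated best with a pool of their own number. No pairing by number was apparent throughout, but with 3 pools per group this check cannot exclude one. With the replicate block the counts were 0, 1 and 8, and 9 of the 10 genes passed against culture.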
